A study of Mus musculus with 2 samples.

Results

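The 9 genes described here encode 7 integrin subunits (Itga4, Itgb1, Itgb7, Itgae, Itgal, Itgb2 and Itga6), the hyaluronan receptor CD44 (Cd44) and the chemokine receptor CCR9 (Ccr9). They were listed by name and are 9 of 33696 genes in the count tables. They were measured in splenic CD8 T cells of wild-type C57BL/6 mice, by droplet single-cell RNA sequencing of the 3′ ends of transcripts. The DHEA group received dehydroepiandrosterone, an androgen precursor used to model polycystic ovary syndrome, under the skin at 40 mg/kg in 20 µL sesame oil once a day for 21 days. The CTRL group received the same volume of oil on that schedule. Both groups were wild type, their CD8 T cells were purified with magnetic beads and pooled, and each is 1 library. How many mice were pooled, and their age, is not stated in the labels. Differences between the groups therefore have no replicate check, and no test was run. All intervals are exact 95% intervals that cover counting error only.

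Integrins are pairs of an alpha and a beta chain that hold a T cell to vessel walls, matrix or other cells. The alpha 4 chain (Itga4) pairs with beta 1 (Itgb1) into a receptor for VCAM-1 and fibronectin, and with beta 7 (Itgb7) into a receptor for the gut vessel molecule MAdCAM-1. Beta 7 also pairs with alpha E (Itgae, CD103), which binds E-cadherin on epithelium, while alpha L (Itgal) and beta 2 (Itgb2) form LFA-1, the receptor for ICAM molecules. CCR9 follows the gut and thymus chemokine CCL25. CD44 is the classical mark of memory-phenotype T cells. In mice, CD44-high CD8 T cells with little alpha 4 (CD49d) protein are known as virtual memory cells, which acquire a memory phenotype without foreign antigen, whereas cells that have met antigen carry more of it. Ccl5, the chemokine gene used here to split the cells, is a transcript that memory-phenotype CD8 T cells hold in large amounts. Messenger RNA and not surface protein was counted.

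RefSeq promoters (GRCm38.p6, from 250 bases before to 50 after the start) were on hand for 5 of the 9 genes, Itga4, Itgb1, Itgb7, Cd44 and Ccr9. The 4 printed below belong to the genes on which the Ccl5 split turns: the alpha 4 chain, a partner and CD44, which were high in parts of the Ccl5-high cells, and CCR9, which was low there. Capitals mark matches, on either strand, to the letters TGTGGT (RUNX), GTGTGA (T-box), CACCTG (ZEB E-box) and GGGCGG (GC box).
Itga4: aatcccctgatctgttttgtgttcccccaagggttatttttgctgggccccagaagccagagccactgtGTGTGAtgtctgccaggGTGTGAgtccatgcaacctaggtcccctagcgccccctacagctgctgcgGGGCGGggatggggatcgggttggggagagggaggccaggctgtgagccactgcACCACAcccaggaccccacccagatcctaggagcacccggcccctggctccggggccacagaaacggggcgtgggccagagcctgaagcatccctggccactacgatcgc
Itgb1: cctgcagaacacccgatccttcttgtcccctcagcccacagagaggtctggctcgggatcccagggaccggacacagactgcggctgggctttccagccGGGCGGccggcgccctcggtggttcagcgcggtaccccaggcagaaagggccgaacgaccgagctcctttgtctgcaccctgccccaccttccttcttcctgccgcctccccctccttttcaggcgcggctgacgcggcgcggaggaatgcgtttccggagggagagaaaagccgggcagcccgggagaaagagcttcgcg
Cd44: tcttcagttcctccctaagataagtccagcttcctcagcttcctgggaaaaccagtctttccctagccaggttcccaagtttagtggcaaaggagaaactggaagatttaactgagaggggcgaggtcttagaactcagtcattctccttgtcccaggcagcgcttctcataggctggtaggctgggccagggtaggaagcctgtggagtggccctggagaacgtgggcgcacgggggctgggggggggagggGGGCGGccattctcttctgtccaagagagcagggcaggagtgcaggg
Ccr9: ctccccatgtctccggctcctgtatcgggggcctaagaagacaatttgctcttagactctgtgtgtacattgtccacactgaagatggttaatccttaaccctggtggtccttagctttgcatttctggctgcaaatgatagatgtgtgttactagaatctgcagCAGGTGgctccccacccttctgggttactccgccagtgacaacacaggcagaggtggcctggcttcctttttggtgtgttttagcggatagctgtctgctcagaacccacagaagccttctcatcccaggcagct
The Itga4 window (chr2:79255176-79255475, plus strand) held 2 T-box matches, at -181 and -164 from the start, a GC box at -114 and a RUNX match at -60. Itgb1 (chr8:128685404-128685703, plus strand) had a GC box at -151, and Cd44 (chr2:102901616-102901915, minus strand) had one at 4. Ccr9 (chr9:123766961-123767260, plus strand) had a ZEB E-box at -85, and the Itgb7 window had none of the 4. Among 32851 promoters of the same length, 16.8% held the RUNX letters, 14.5% the T-box, 20.2% the ZEB E-box and 35.7% the GC box. The printed matches do not overlap each other, and a match is only a run of letters.

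Of 12128 barcodes in the DHEA library and 9495 in the CTRL library, 11671 and 9210 passed a minimum of 200 genes and a limit of 10% on mitochondrial UMIs (unique molecular identifiers, 1 per captured molecule). UMIs of Cd8a or Cd8b1 and of Cd3d, Cd3e or Cd3g were present in 10699 DHEA cells (91.7%) and 8717 CTRL cells (94.6%). The other 972 and 493 were set aside. Median depth in these cells was 4483 UMIs in DHEA and 5615 in CTRL, and 51 barcode sequences occurred in both libraries, 45 and 44 of them within the gate. Marker lists of other cells came, summed, to 25.7 CPM (UMIs scaled to a total of 1000000) in DHEA and 25.6 CPM in CTRL for B cells, with 6 of 7 markers seen, and 1.12 and 1.83 CPM for platelets, with 4 and 2 of 6 seen. The stromal and endothelial list summed to 115 CPM in DHEA and 142 CPM in CTRL, nearly all of it Pecam1 (115 and 142 CPM), and the myeloid list to 72.5 and 69 CPM, mostly Cst3 (63.8 and 61.7 CPM). NK genes summed to 90.5 CPM in DHEA and 48.7 CPM in CTRL, of which Eomes, which CD8 T cells also express, gave 50.4 and 29.8 CPM, and Ncr1 was at 0 in DHEA. A search for barcodes of B cells, with a minimum of 3 B cell marker UMIs, found none, and whether B cells lack the genes described here was not tested. Free RNA was not gauged, since no cell type shown to lack those genes was on hand.

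Cells were called Ccl5-high where Ccl5 made up at least 20 of every 10000 UMIs and Ccl5-negative where no Ccl5 UMI was found. Ccl5-high cells were 2171 of 10699 in DHEA (20.3%, 19.5 to 21.1) and 797 of 8717 in CTRL (9.14%, 8.55 to 9.77). Ccl5-negative cells were 5474 in DHEA (51.2%) and 6135 in CTRL (70.4%), and the rest, 3054 and 1785 cells, were called Ccl5-intermediate. This is a range of 1 transcript and not a cell type: 257 DHEA and 108 CTRL cells lay between 20 and 25 per 10000, and 325 and 120 between 15 and 20. Median depth was 4699 UMIs in Ccl5-high and 4031.5 in Ccl5-negative cells of DHEA, and 6515 and 5304 UMIs in those of CTRL. Of the 17 genes listed for virtual or central memory cells, 16 could be measured in the DHEA library. All 16 were at least 1.5-fold higher in Ccl5-high cells, where 4.92% of all measured genes were. In the CTRL library 13 of 14 were, where 5.21% of all measured genes were. Klrc1, for the inhibitory receptor NKG2A, had 77.8 against 1.53 CPM in DHEA and 57.1 against 0.62 CPM in CTRL. These shares do not name a cell type: S100a6 and S100a4, from the list of antigen effector genes, were higher too in subsets of Ccl5-high cells, as given below. The NK list, which shares Eomes with the memory list, summed to 228 CPM in Ccl5-high cells of DHEA and 207 CPM in those of CTRL. Its largest part there was Klre1, which is not on the memory list, at 107 CPM in DHEA and 86.5 CPM in CTRL. The part of the NK list in the ratios below was not tested. Ncr1 was at 0 in the Ccl5-high cells of DHEA, and Cd4 and Foxp3 were at 0 in those of both libraries.

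The alpha 4 gene was not low in the Ccl5-high cells as a whole. Itga4 stood at 259.5 CPM in Ccl5-high and 243.3 CPM in Ccl5-negative cells of the DHEA library (log2 ratio 0.093, 0.028 to 0.158). In the CTRL library it stood at 304 and 257.6 CPM (log2 0.24, 0.16 to 0.32). Its beta 1 partner was far higher: Itgb1 had 173.2 against 31.2 CPM in DHEA (5.55-fold) and 181.2 against 30.5 CPM in CTRL (5.93-fold). Itgb7, the other partner, went the opposite way by less than 1.5-fold, with 202.8 against 274.8 CPM in DHEA (log2 -0.44) and 195 against 271 CPM in CTRL (log2 -0.48). Summed over the whole class, Ccl5-high cells thus had more message for beta 1 and less for beta 7, beside a near-equal amount for alpha 4. The cells with the most Ccl5 differed from this sum in alpha 4 and beta 7, as given below.

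**Figure D1:**
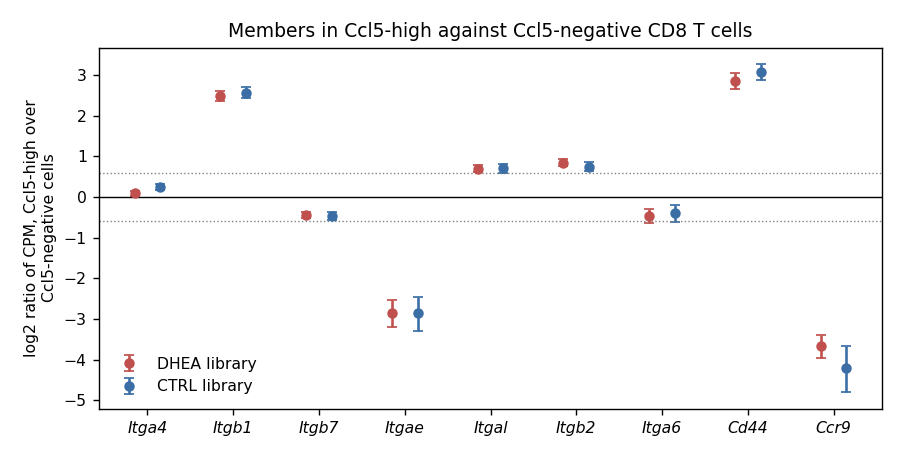
Log2 ratio of CPM in Ccl5-high over Ccl5-negative CD8 T cells for each gene, in the DHEA (left point) and CTRL (right point) library; bars are exact 95% intervals of counting error and dotted lines mark 1.5-fold. Itgb1 and Cd44 lie above 2 and Itgae and Ccr9 below -2 in both libraries, while Itga4 lies near 0.

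Across the 9 genes the split looked alike in both libraries. Of the 9, 6 differed at least 1.5-fold in DHEA and 6 in CTRL, where 8.55% of 8760 and 9.77% of 8908 measured genes did. The 4 higher genes were Itgb1, Cd44, Itgal and Itgb2 (4.92% of all genes were higher in DHEA and 5.21% in CTRL), and the 2 lower ones were Ccr9 and Itgae (3.63% and 4.56%). The median log2 ratio was 0.093 over the 9 genes and -0.013 over all genes in DHEA, and 0.24 and -0.013 in CTRL.

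CD44 and LFA-1 were on the high side. Cd44 had 82.7 CPM in Ccl5-high and 11.5 CPM in Ccl5-negative cells of DHEA (7.17-fold), and 100.6 and 11.9 CPM in those of CTRL (8.45-fold). Itgal had 151.3 against 93.3 CPM in DHEA (1.62-fold) and 151.2 against 92.6 CPM in CTRL (1.63-fold). Itgb2 had 178.9 against 100 CPM in DHEA (1.79-fold) and 156.7 against 93.4 CPM in CTRL (1.68-fold). Both chains of LFA-1 were therefore higher, by less than Cd44 was. After every cell was thinned to 2000 UMIs, a Cd44 UMI was found in 15.4% of Ccl5-high (282 of 1830 cells) and 2.23% of Ccl5-negative cells (96 of 4309) in DHEA. In CTRL the shares were 17% (133 of 781) and 2.02% (120 of 5947). Thinning left out 341 Ccl5-high and 1165 Ccl5-negative cells of DHEA, and 16 and 188 of CTRL, as too shallow. Unthinned, 31% of Ccl5-high and 4.13% of Ccl5-negative DHEA cells had a Cd44 UMI, and 44.2% and 5.23% of CTRL cells.

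Ccr9 and Itgae were on the low side. Ccr9 had 9.26 CPM in Ccl5-high and 117.9 CPM in Ccl5-negative cells of DHEA, 12.7-fold lower, and 5.38 and 99.3 CPM in those of CTRL, 18.5-fold lower. Those levels in Ccl5-high cells rest on 103 UMIs in DHEA and 28 UMIs in CTRL. Itgae had 7.64 against 55.5 CPM in DHEA (7.26-fold lower) and 9.62 against 70 CPM in CTRL (7.28-fold lower). Thinned to 2000 UMIs, 2.57% of Ccl5-high and 19.4% of Ccl5-negative DHEA cells had a Ccr9 UMI, and 1.66% and 17.5% of CTRL cells did. For Itgae the shares were 1.86% and 9.68% in DHEA and 1.28% and 12.4% in CTRL. Unthinned, they were 3.73% and 29.5% for Ccr9 and 3.59% and 17% for Itgae in DHEA, and 2.76% and 34.1% and then 4.89% and 25.4% in CTRL. Itga6, the alpha chain of a laminin receptor, was lower by less than 1.5-fold, with 34.3 against 47.7 CPM in DHEA (log2 -0.48) and 41 against 53.8 CPM in CTRL (log2 -0.39).

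The near-equal Itga4 level of Ccl5-high and Ccl5-negative cells came with a wide spread among the Ccl5-high cells. Along the Ccl5 level of the cell, Itga4 was lowest in the middle of the range and highest at its top. In DHEA it stood at 243.3 CPM in cells with no Ccl5 UMI, 202.7 CPM up to 5 per 10000, 124 CPM from 5 to 20, 114.1 CPM from 20 to 50, 272.7 CPM from 50 to 100 and 792.3 CPM from 100 upward. In CTRL the same steps gave 257.6, 213.6, 128.4, 186.4, 320.7 and 871.8 CPM. The lowest step was 20 to 50 in DHEA and 5 to 20 in CTRL. The top step held 405 DHEA and 123 CTRL cells. Where the line is drawn therefore sets the answer: with Ccl5-high taken from 10 per 10000 the Itga4 log2 ratio over Ccl5-negative cells was -0.14 in DHEA and -0.036 in CTRL, and from 40 per 10000 it was 0.61 and 0.62. At the line itself, cells just inside (20 to 25) had 101 CPM of Itga4 in DHEA and 142 CPM in CTRL, and cells just outside (15 to 20) had 76.6 and 103 CPM.

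**Figure D2:**
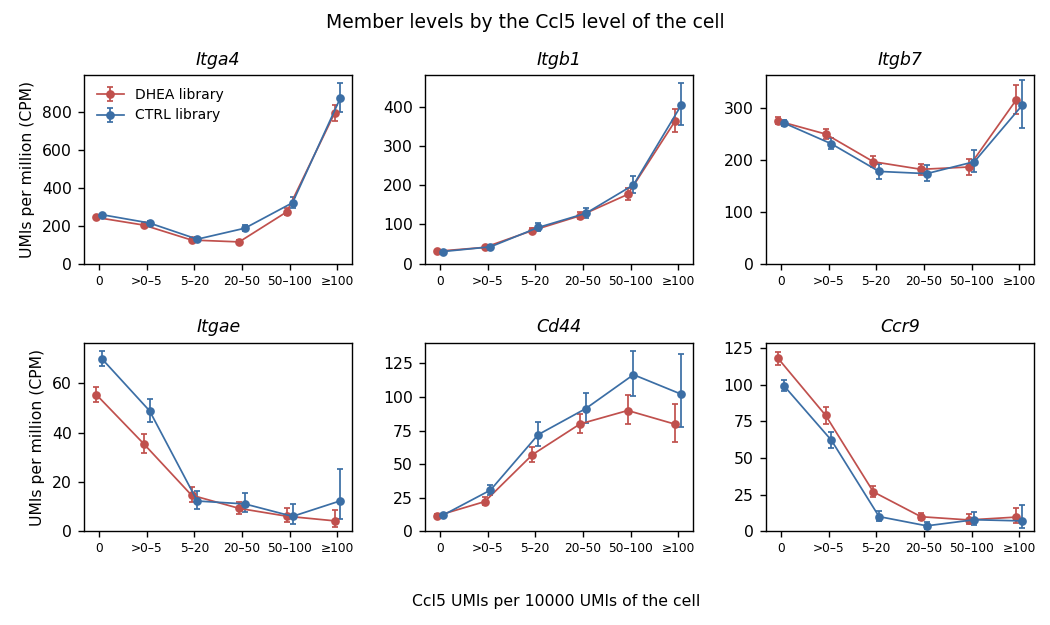
CPM of 6 of the genes in cells grouped by Ccl5 UMIs per 10000 UMIs of the cell (horizontal axis), for the DHEA and CTRL libraries; bars are exact Poisson intervals. Itga4 dips to 114.1 CPM in DHEA and 128.4 CPM in CTRL and climbs to 792.3 and 871.8 CPM, Itgb1 is higher at each step, and Itgae and Ccr9 are highest in cells with no Ccl5 UMI.

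The other genes followed the Ccl5 level differently. Itgb1 was higher at each step and reached 364.4 CPM in DHEA and 403.3 CPM in CTRL at the top. Cd44 was highest from 50 to 100, at 89.9 CPM in DHEA and 116.6 CPM in CTRL. Ccr9 was already at 26.9 CPM in DHEA and 9.99 CPM in CTRL from 5 to 20, and Itgae at 14.6 and 12.3 CPM. Itgb7 was lowest in the middle and higher again at the top, as Itga4 was: it had 181.6 CPM in DHEA and 173.3 CPM in CTRL from 20 to 50, and 315.6 and 304.7 CPM from 100 upward.

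Effector genes marked the Itga4-high end. Among Ccl5-high cells, those with at least 2 UMIs summed over Gzma, Gzmb, Gzmk, Klrg1, Cx3cr1 and S1pr5 numbered 284 in DHEA and 45 in CTRL, and those with none numbered 1768 and 698. Itga4 had 861.5 CPM in cells with and 159.2 CPM in cells without effector UMIs in DHEA (5.41-fold, log2 2.44, 2.32 to 2.55). In CTRL it had 708.8 and 264.7 CPM (2.68-fold, log2 1.42, 1.19 to 1.65). Itgb1, Itgb7, Itgal and Itgb2 were also at least 1.5-fold higher with effector UMIs in both libraries, giving 5 of 7 measured genes in each, where 20.6% of genes differed that much in DHEA and 17.3% in CTRL, 13.0% and 11.4% of genes being higher. Their median depth was 3953.5 UMIs in DHEA and 5001 UMIs in CTRL. Itgb7 had 351.1 CPM in the effector-gene cells of DHEA, above the Ccl5-negative level of 274.8 CPM by less than 1.5-fold (log2 0.35, 0.22 to 0.49). In CTRL it had 306 CPM in those cells, from 79 UMIs, against 271 CPM, a difference within counting error (log2 0.17, -0.16 to 0.49).

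The Ccl5-high cells without effector UMIs gave a closer view of the virtual memory question than the whole class, and the libraries differed in it. They were not free of Itga4-rich cells: cells of cluster 8, described below, were 5.6% of them in DHEA and 11.7% in CTRL. Those cluster 8 cells had 871.6 and 772.9 CPM of Itga4 and held 28.4% and 24.7% of the Itga4 UMIs. In DHEA the Itga4 level of all cells without effector UMIs, 159.2 CPM, lay below the 243.3 CPM of Ccl5-negative cells (log2 -0.61, -0.70 to -0.53). In CTRL their 264.7 CPM lay beside 257.6 CPM (log2 0.040, -0.049 to 0.127). Against Ccl5-negative cells, 7 of the 9 genes differed at least 1.5-fold in DHEA and 5 in CTRL, where 7.90% and 9.48% of all genes did. In a split chosen after the values were seen, these cells were divided by Ikzf2, the gene of the transcription factor Helios. Cells with an Ikzf2 UMI had 315.2 CPM of Itga4 in DHEA (368 cells) and 384.9 CPM in CTRL (248 cells). Cells with neither an Ikzf2 nor an effector UMI had 113.6 CPM in DHEA (1400 cells) and 191.6 CPM in CTRL (450 cells), below Ccl5-negative cells in both libraries, by more than 1.5-fold in DHEA (log2 -1.10, -1.21 to -0.99) and by less in CTRL (log2 -0.43, -0.55 to -0.30). They were 64.5% of Ccl5-high cells in DHEA and 56.5% in CTRL. Cells with an Ikzf2 UMI were deeper, at a median of 5757 UMIs against 4563 in DHEA and 6868 against 6215.5 in CTRL, and the part of depth in this division was not tested. Cd44 stayed high in the cells with neither, at 82.8 CPM in DHEA and 99 CPM in CTRL, and Ccr9 and Itgae stayed low. The cells with neither were not free of antigen effector genes. S100a6 had 185 CPM in DHEA (log2 3.275 over Ccl5-negative cells) and 214.5 CPM in CTRL (log2 5.186). S100a4 had 16.2 CPM in DHEA (log2 1.683) and 25.3 CPM in CTRL (log2 3.296). Both were named after their values were seen, and the rest of that list is not given for these cells.

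**Figure D3:**
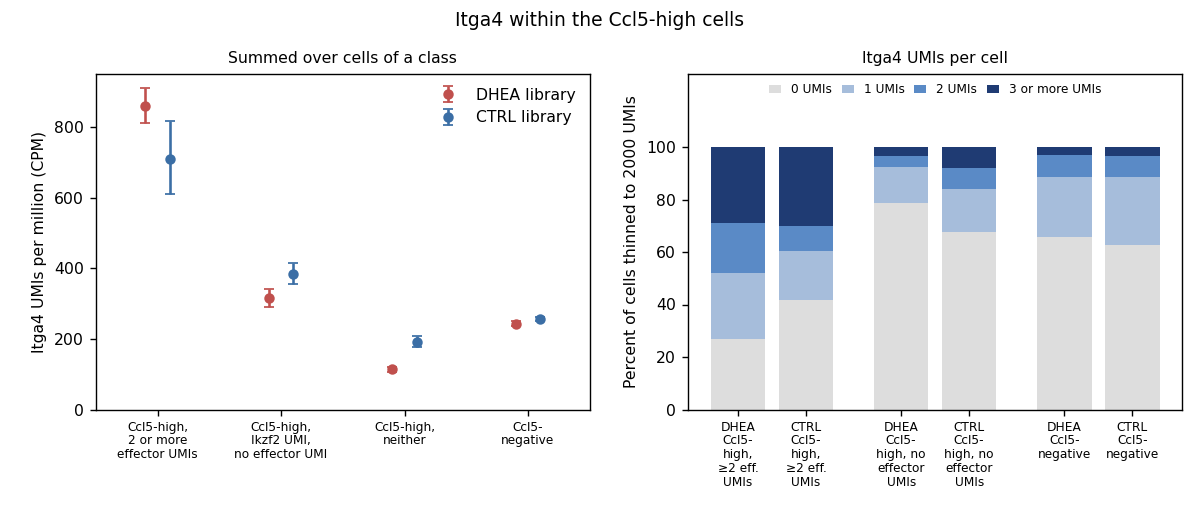
Left, Itga4 CPM summed over subsets of Ccl5-high cells and over Ccl5-negative cells, with exact Poisson intervals; right, percent of cells with 0, 1, 2 or at least 3 Itga4 UMIs after thinning to 2000 UMIs, for DHEA (left of each pair) and CTRL. Itga4 is at 861.5 CPM in DHEA and 708.8 CPM in CTRL cells with effector UMIs, and at 113.6 and 191.6 CPM in Ccl5-high cells with neither effector nor Ikzf2 UMIs.

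Single cells showed the same spread. Thinned to 2000 UMIs, 71.2% of Ccl5-high cells in DHEA had no Itga4 UMI (69.1 to 73.3) against 65.7% of Ccl5-negative cells (64.3 to 67.1). In CTRL the shares were 65% (61.6 to 68.4) and 62.5% (61.2 to 63.7), whose intervals overlap. At the other end, 7.27% of Ccl5-high and 3.11% of Ccl5-negative cells in DHEA had 3 or more Itga4 UMIs, and 9.99% and 3.33% in CTRL. In DHEA the Ccl5-high class thus held both more cells without an Itga4 UMI and more with 3 or more. Unthinned, an Itga4 UMI was found in 39.3% of Ccl5-high and 49.8% of Ccl5-negative cells of DHEA, and in 54% and 61.1% of CTRL cells. Among effector-gene cells 29% in DHEA (67 of 231) and 30.2% in CTRL (13 of 43) had 3 or more.

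Ccl5-high cells with at least 5 Itga4 UMIs per 10000 were set beside those with none, as a description of cells picked by Itga4. They were 20.2% of the class in DHEA and 24.2% in CTRL, against 60.7% and 46% with none. Itgb1 had 362.5 CPM in Itga4-rich and 137.9 CPM in Itga4-lacking cells of DHEA, and 280.2 and 160.6 CPM in those of CTRL. Itgb7 had 334.9 against 167.7 CPM in DHEA and 287 against 168.9 CPM in CTRL. In the class as a whole the LFA-1 chains were higher too. Itgb2 was at 283.8 against 155.4 CPM in DHEA and 212.3 against 145.7 CPM in CTRL. Itgal was at 206.6 against 137.1 CPM in DHEA and 196.8 against 140.7 CPM in CTRL. Median depth was 3979 against 4282 UMIs in DHEA and 5031 against 6731 UMIs in CTRL. S100a4, a gene named after its value was seen, had 447.8 against 20.1 CPM in DHEA and 129 against 14.1 CPM in CTRL. Cd44 hardly differed, with 92.8 against 79.9 CPM in DHEA and 99.9 against 101.4 CPM in CTRL. Among Ccl5-high cells without effector UMIs, the LFA-1 differences lay within counting error. Itgb2 had log2 0.21 (-0.041 to 0.449) in DHEA and 0.13 (-0.185 to 0.446) in CTRL. Itgal had log2 0.26 (-0.001 to 0.509) in DHEA and 0.29 (-0.021 to 0.587) in CTRL. There Itgb1 (log2 1.18 in DHEA, 0.795 in CTRL) and Itgb7 (0.67 and 0.80) stayed higher in Itga4-rich cells. Cd44 was higher in those cells in DHEA, by less than 1.5-fold (log2 0.41, 0.087 to 0.724), and not in CTRL (log2 -0.14, -0.550 to 0.246). Ikzf2 had 391.6 against 59.65 CPM in DHEA and 432.1 against 99.87 CPM in CTRL.

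Whether an alpha and a beta chain were found in the same cells differed from pair to pair. Among Ccl5-high cells thinned to 2000 UMIs, an Itgb1 UMI was found in 34% of cells with an Itga4 UMI and 22.3% of cells without one in DHEA, and in 37% and 23.8% in CTRL. For Itgb7 the shares were 38.7% and 30.6% in DHEA, and 37.4% (31.6 to 43.4) and 31.9% (27.9 to 36.1) in CTRL, whose intervals overlap. In the same cells Itgb2 was found in 33.8% of those with and 29.5% of those without an Itgal UMI in DHEA and in 28.4% and 28.2% in CTRL, and Itgb1 in 25.8% of those with and 25.6% of those without an Itga6 UMI in DHEA and in 26.1% and 28.7% in CTRL. In Ccl5-negative cells the Itgb1 shares by Itga4 were close, 6.64% and 5.51% in DHEA and 5.87% and 5.52% in CTRL, as were the Itgb7 shares, 40.5% and 41.9% in DHEA and 42.1% and 41.4% in CTRL. In Ccl5-negative CTRL cells Itgb7 was found in 50.5% of cells with an Itgae UMI and 40.4% of those without, and in DHEA in 44.6% and 41.1%.

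Clustering on variable genes, with the 9 genes left out, gave 12 clusters, which are named by number and leading genes. Cluster levels are given as a description, since genes that run with the 9 went into the clustering. Over the 11 clusters with at least 100 cells in each library, Itga4 ran from 75.2 CPM in DHEA and 107.8 CPM in CTRL in cluster 6 (led by Zfp296, Serpinb5 and Drc1) to 807.2 and 547.4 CPM in cluster 8 (H1f5, Pclaf and H3c3, genes of dividing cells, with Lgals3 and Klrg1). In CTRL the highest level was 596.1 CPM in cluster 10 (with Gm30948 and Tex2 among its leading genes), where DHEA had 581.4 CPM. Cluster 10 was shallow, at a median of 2197 UMIs in DHEA and 2426 in CTRL, and 76.4% of its DHEA cells had no Ccl5 UMI. Gphn, a gene named after its value was seen, stood there at 6149 CPM in DHEA and 6659 CPM in CTRL, against 1121 to 2393 CPM and 1329 to 2144 CPM in the other clusters. Barcodes left out for a mitochondrial share of 10% or more also had much Itga4, 584.1 CPM in DHEA and 510.3 CPM in CTRL, and the part of RNA quality in the level of cluster 10 was not tested. The next was cluster 1 (Nipa1, Syt6, Epb41l5), at 411.1 CPM in DHEA and 466.1 CPM in CTRL, with 72.7% of DHEA cells Ccl5-negative. In CTRL the intervals of clusters 8 and 10 overlapped, at 509.5 to 587.4 and 527.4 to 671.1 CPM. Itgb1 was different, at 372.3 CPM in DHEA and 349.8 CPM in CTRL in cluster 8 but 27.1 and 32.4 CPM in cluster 1 and 37.4 and 78.6 CPM in cluster 10.

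**Figure D4:**
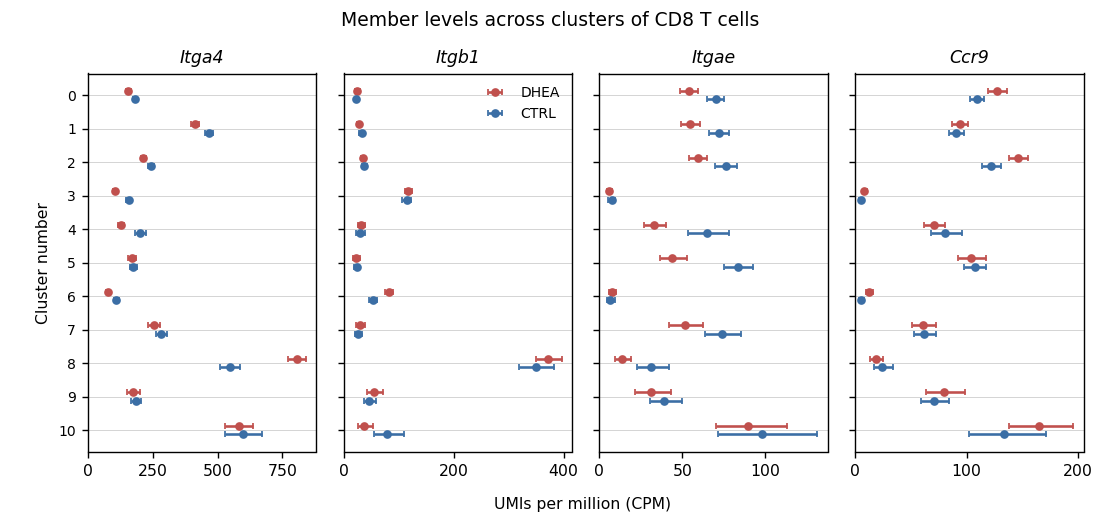
CPM of Itga4, Itgb1, Itgae and Ccr9 (horizontal axes) in each cluster with at least 100 cells per library, for DHEA (upper point) and CTRL (lower point), with exact Poisson intervals. Clusters 1, 8 and 10 have the highest Itga4 levels, cluster 8 has the highest Itgb1 level, and clusters 3 and 6 are lowest in Itgae and Ccr9.

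Ccl5-high cells lay mainly in clusters 3 (Klra5, Klra1, Klra7), 6 and 8. Cluster 8 held 18.8% of the Ccl5-high cells of DHEA and 18.3% of those of CTRL, but 60.6% and 38% of their Itga4 UMIs. Its Ccl5-high cells had 931.8 CPM of Itga4 in DHEA and 851.9 CPM in CTRL. Those of cluster 3 had 130.1 CPM in DHEA and 208 CPM in CTRL, and those of cluster 6 had 86.3 and 187.9 CPM. Cluster 8 was then left out of the Ccl5-high side only, a choice made after the values were seen. The Itga4 log2 ratio of the remaining Ccl5-high cells over all Ccl5-negative cells was -0.98 in DHEA (-1.08 to -0.89) and -0.24 in CTRL (-0.34 to -0.14). Since the cells left out held 60.6% and 38% of the Itga4 UMIs, a lower ratio was fixed in advance. Inside cluster 3 the Ccl5-high cells had more Itga4 than the few Ccl5-negative ones, 130.1 against 71.5 CPM in DHEA and 208 against 80.1 CPM in CTRL. Inside cluster 6 they had 86.3 against 66.9 CPM in DHEA, a difference within counting error (log2 0.37, -0.11 to 0.88), and 187.9 against 108.4 CPM in CTRL. Inside cluster 4 of DHEA, the other case with at least 50 cells of each class, they had less, 53.7 against 153.4 CPM from 14 and 311 UMIs (log2 -1.51, -2.40 to -0.75).

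The genes whose level ran most like a member were sought over 23 points, among 7610 genes with at least 1000 UMIs. Each point was a cluster in 1 library with at least 100 cells there. Cluster 11 gave a point in CTRL (114 cells) but none in DHEA (98 cells). Points of 1 library share its depth and preparation, and the correlations of log2 levels are given as a description. Rora (Pearson r = 0.87), Sun1 (0.86), Slc4a7 (0.86), Rad21 (0.84) and Inpp4a (0.84) ran most like Itga4. S100a4 (0.93), Ifng (0.92) and Calm2 (0.91) ran most like Itgb1, so the 2 chains of the VCAM-1 receptor had different nearest genes. Itgae and Ccr9 ran close to each other (0.94), with Tgfbr3 (0.98) nearest to Itgae, 1700062C10Rik (0.94) also close to it, and Rgcc (0.93) and Tmie (0.93) next for Ccr9. Il18rap (0.94), Runx2 (0.93) and Plek (0.93) ran most like Cd44.

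Genes that serve integrins differed about as often as genes did in general. Of 38 listed genes for integrin activation and adhesion adaptors, 32 could be measured between Ccl5-high and Ccl5-negative cells. In DHEA 1 was at least 1.5-fold higher and 1 lower, and in CTRL 2 were higher and 1 lower, where 8.55% and 9.77% of all genes differed. Their median log2 ratio was 0.067 in DHEA and 0.085 in CTRL, against -0.013 over all genes in each. The higher gene in both was Zyx, for the focal adhesion protein zyxin, at 165.9 against 75.1 CPM in DHEA and 168.1 against 78.7 CPM in CTRL. The lower one was Actn1, for alpha-actinin 1, at 111.3 against 234.5 CPM in DHEA and 134.4 against 249.1 CPM in CTRL. Actn1 is also on the list of naive T cell genes. The linkers of CD44 to the actin cortex (such as Ezr, Msn, Rdx and Nf2) were all 5 measured and none reached 1.5-fold, in either library. Of the other 20 integrin subunits 1 could be measured in DHEA and 2 in CTRL. Itgav had 29 against 27.3 CPM in DHEA and 36.4 against 30.8 CPM in CTRL, and Itgb3 had 8.08 against 4.96 CPM in CTRL.

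In T cells Itgae is known to be raised by TGF-beta and Ccr9 by retinoic acid. Of 21 genes of these pathways 15 were measured, and 1 was at least 1.5-fold higher and 2 lower in Ccl5-high cells of each library. Tgfbr3, an auxiliary TGF-beta receptor, had 5.75 against 38.2 CPM in DHEA and 7.5 against 46.7 CPM in CTRL. Rarg, a retinoic acid receptor, had 11.2 against 32.7 CPM in DHEA and 10.8 against 37.3 CPM in CTRL. Smad3, which carries the TGF-beta signal, went the other way, at 86.3 against 33.5 CPM in DHEA and 99 against 33.9 CPM in CTRL. The list for gut homing and residency had 5 of 14 genes measured, 3 of them at least 1.5-fold higher in DHEA and 2 in CTRL and none lower. Cd160 had 88.3 against 19.3 CPM in DHEA and 82.9 against 17.1 CPM in CTRL. Of 21 genes for ligands of these receptors 4 were measured and none reached 1.5-fold, in either library. Ccl25, the CCR9 ligand, had 17.4 against 19.7 CPM in DHEA and 17.9 against 21.4 CPM in CTRL.

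Between the libraries the 9 genes differed little when all CD8 T cells were summed. Only Itgae was at least 1.5-fold apart, at 35.6 CPM in DHEA and 56 CPM in CTRL (1.57-fold lower, log2 -0.65, -0.74 to -0.56), so 1 of 9 genes was, where 3.24% of 10515 genes were. Itgb1 had 71.7 CPM in DHEA and 52.8 CPM in CTRL (log2 0.44). Cd44 had 35.4 and 28.7 CPM (log2 0.30), Itgb2 had 122.9 and 104.1 CPM (log2 0.24), and Itgal had 110.5 and 101.5 CPM (log2 0.12). These 4 genes were the ones at least 1.5-fold higher in Ccl5-high cells. Of the 2 that were lower there, Itgae was lower in DHEA and Ccr9 hardly differed between the libraries. Itga4 had 223.4 CPM in DHEA and 245.9 CPM in CTRL (log2 -0.14), Itga6 had 42.7 and 51.1 CPM (log2 -0.26), Itgb7 had 243.6 and 249.5 CPM (log2 -0.035), and Ccr9 had 74.3 and 76.8 CPM (log2 -0.047). In summed cells, a shift in cell shares and a change within cells cannot be told apart.

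The other lists give the setting of that comparison, in which 3.24% of all measured genes were at least 1.5-fold apart either way. None of 33 measured integrin adaptors was 1.5-fold apart, and Ptk2, for focal adhesion kinase, had the largest ratio, at 6.67 CPM in DHEA and 9.36 CPM in CTRL. Of 15 genes of the retinoic acid and TGF-beta list only Tgfbr3 was, at 25.1 CPM in DHEA and 37.8 CPM in CTRL. It lay on the same side as Itgae. For gut homing and residency 3 of 9 genes were higher in DHEA, among them Prdm1, the gene of the transcription factor BLIMP-1, at 3.42 CPM in DHEA and 1.77 CPM in CTRL. Of 4 other integrin subunits Itga1 was higher, at 2.68 CPM in DHEA and 1.75 CPM in CTRL. Of the virtual or central memory genes 9 of 16 were higher in DHEA, and of the antigen effector genes 14 of 16, with none lower, against the 1 of 9 among the integrins, Cd44 and Ccr9.

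Weighting the 3 Ccl5 classes of DHEA by their UMI shares in CTRL moved several of these differences. Itgb1 then had 52.8 CPM in both libraries (log2 -0.001), and Itgal had 102.7 CPM in DHEA against 101.5 CPM in CTRL (log2 0.016). Cd44 turned to the other side, with 25 CPM in DHEA against 28.7 CPM in CTRL (log2 -0.20). Itgb2 had 112.3 against 104.1 CPM (log2 0.11), and Itga4, at 227.5 against 245.9 CPM (log2 -0.11), and Itga6, at 44.8 against 51.1 CPM (log2 -0.19), stayed lower in DHEA. Itgae then had 43.6 CPM in DHEA against 56 CPM in CTRL (log2 -0.36), under the 1.5-fold line. Ccr9 had 92 against 76.8 CPM (log2 0.26).

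Within classes none of the measured genes reached 1.5-fold, 0 of 7 in Ccl5-high cells, where 2.53% of all genes did, 0 of 9 in Ccl5-intermediate cells, where 1.57% did, and 0 of 9 in Ccl5-negative cells, where 1.67% did. In Ccl5-negative cells Ccr9 had 117.9 CPM in DHEA and 99.3 CPM in CTRL (log2 0.25, 0.17 to 0.32), and Itgae had 55.5 and 70 CPM (log2 -0.33, -0.44 to -0.24). Those 2 genes, which ran together across clusters, lay on opposite sides between the libraries. In Ccl5-high cells Itga4 had 259.5 CPM in DHEA and 304 CPM in CTRL (log2 -0.23) and Cd44 had 82.7 and 100.6 CPM (log2 -0.28). Itgae and Ccr9 had under 200 UMIs there over both libraries and were not counted, though Ccr9 stood at 9.26 CPM in DHEA and 5.38 CPM in CTRL (log2 0.78, 0.17 to 1.44, from 103 and 28 UMIs).

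**Figure D5:**
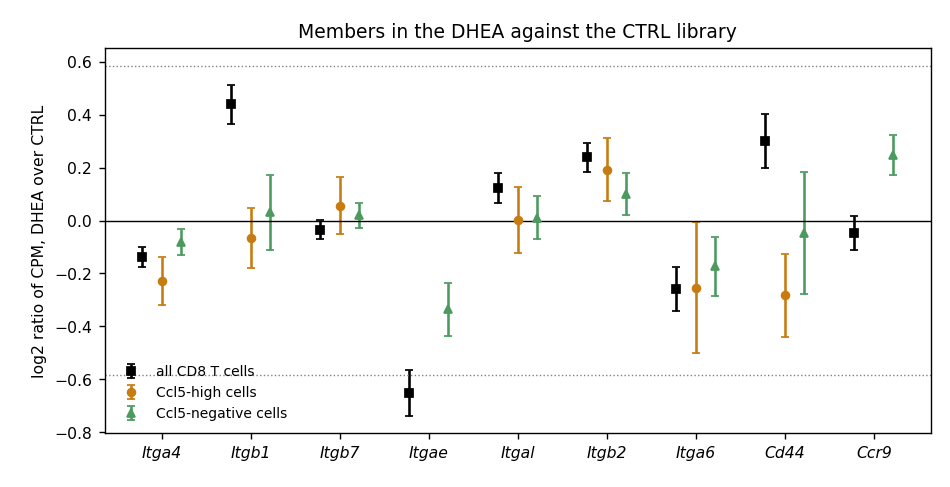
Log2 ratio of CPM in DHEA over CTRL for each gene, in all CD8 T cells, Ccl5-high cells and Ccl5-negative cells, where at least 200 UMIs were counted; bars are exact 95% intervals of counting error and dotted lines mark 1.5-fold. Itgb1 and Cd44 lie above 0 in all cells but not in Ccl5-high cells, and Itgae lies below 0 in all and in Ccl5-negative cells.

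In Ccl5-high cells without effector UMIs the libraries were further apart in Itga4 than in the whole class. There Itga4 had 159.2 CPM in DHEA and 264.7 CPM in CTRL (log2 -0.73, -0.84 to -0.62), the only 1 of 7 measured genes at least 1.5-fold apart, where 2.13% of all genes were. In cells with effector UMIs it had 861.5 CPM in DHEA and 708.8 CPM in CTRL (log2 0.28, 0.06 to 0.51), and 0 of 5 measured genes reached 1.5-fold, where 19.2% of all genes did. In these cells, 284 in DHEA and 45 in CTRL, the NK list summed to 275 CPM in DHEA and 759 CPM in CTRL. The innate-like T list summed to 244 and 755 CPM. Both proliferation genes measured, 2 of 8 listed, were at least 1.5-fold higher in DHEA (median log2 3.28). Over all cells of cluster 8 the proliferation list went the other way, at 1264 CPM in DHEA and 1781 CPM in CTRL. Effector-gene cells were 13.1% of Ccl5-high cells in DHEA and 5.65% in CTRL, while cells with Ikzf2 and no effector UMI were 17% and 31.1%. The sum of innate-like T genes, which include Ikzf2, was 339 CPM in DHEA (7 of 8 genes seen) and 481 CPM in CTRL (8 of 8) in the cells without effector UMIs, and the gamma delta T list, led by Trdc, summed to 22.8 and 46 CPM. Cells of cluster 8, rich in Itga4, were 5.6% of the cells without effector UMIs in DHEA and 11.7% in CTRL. The part of these cells and genes in the result was not tested. Among cells with neither, the log2 ratios over Ccl5-negative cells stayed apart, at -1.10 in DHEA and -0.43 in CTRL. Over the 11 clusters Itga4 was lower in DHEA than in CTRL in 10, with the counting interval below 0 in 6, and the exception was cluster 8. Itgae was lower in 10 (interval below 0 in 7), Itgb2 was higher in 10 (interval above 0 in 4) and Ccr9 was higher in 7 (interval above 0 in 4).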

How the data were processed

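The deposited values are raw UMI counts for each gene and barcode, 1 matrix a library. Per the file headers they were written by Cell Ranger 8.0.1. Seurat 4.3.0 and mm39 appear in the submitters' processing notes. Genes, lists and classes were chosen with earlier results of these data known. Cells with at least 200 genes, under 10% mitochondrial UMIs and UMIs of CD8 and CD3 genes were summed by class into CPM. Genes with at least 200 UMIs over both sides of a comparison were measured, and 1.5-fold was a rule of size. Intervals were exact (Poisson, Clopper-Pearson and the conditional binomial for ratios) at 95%, for counting error only, and molecules of 1 cell are not independent samples. The ratio step was tested on simulated counts. Scrublet called 1 DHEA and 0 CTRL cells, so few that the caller had not worked, and doublets were left in. Shared barcodes were kept. Clusters came from 2000 variable genes without the 9, 30 components, 15 neighbours and Leiden at resolution 1.0 (scanpy 1.11.5, leidenalg 0.10.2, Python 3.11.15, scipy 1.17.1). edgeR 4.0.16 in R 4.3.3 gave TMM factors only. Members, Ccl5 and gate genes were named, with up to 4 genes per list of largest absolute ratio and the genes most alike across clusters. Ikzf2, Gphn, S100a6, and S100a4 in the Itga4 and Ikzf2 splits, were chosen after their values were seen. Some genes of the lists are not reported here. Alternatives changed the gate, mitochondrial limit, doublet score, depth, scaling, shared barcodes, UMI minimum, Ccl5 line, effector minimum, Ccl5 class weights and cluster resolution.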

Additional observations from a re-analysis of the deposited data

Results flagged for a closer look

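Some differences between the libraries ran in opposite directions in 2 sets of cells, each with a counting interval that excluded 0. With 1 library per group these contrasts were not tested. Itga4 was higher in DHEA than in CTRL in Ccl5-high cells with effector UMIs (log2 0.28) and lower in those without (log2 -0.73). It was also higher in DHEA in cluster 8 (log2 0.56, 0.44 to 0.68) and lower in cluster 3 (log2 -0.60, -0.72 to -0.47). Itgb1 was higher in DHEA in cluster 6 (log2 0.63, 0.40 to 0.86) and lower in cluster 10 (log2 -1.07, -1.82 to -0.33). Itgb2 was higher in DHEA in cluster 5 (log2 0.48, 0.27 to 0.69) and lower in cluster 10 (log2 -0.55, -1.08 to -0.02). Cd44 was higher in DHEA in cluster 4 (log2 0.80, 0.04 to 1.63) and lower in cluster 2 (log2 -0.71, -1.14 to -0.29). The clusters in each of these pairs were picked because their counting intervals lay farthest from 0 on either side. The make-up of a cluster could differ between the libraries. Cluster 6 was 47.3% Ccl5-high in DHEA and 17.2% in CTRL, with median depths of 3494 and 6736 UMIs. Cluster 4 was 8.31% and 1.32% Ccl5-high, with 1787 and 2851 UMIs. The part of this in the Itgb1 and Cd44 differences was not tested.

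In barcodes left out for a mitochondrial share of 10% or more, Cd44 was at 83.7 CPM in DHEA (48 UMIs) and 45.7 CPM in CTRL (19 UMIs), a log2 ratio of 0.87 (0.08 to 1.72).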

How the results depend on the processing

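No paired analysis was possible because each group has 1 library. The Itga4 ratio of Ccl5-high over Ccl5-negative cells moved most. It was -0.14 in DHEA and -0.036 in CTRL (log2) with the line at 10 per 10000, 0.61 and 0.62 with the line at 40, and 0.25 and 0.38 with cells thinned to 1000 UMIs. Without the CD3 and CD8 gate it was 0.42 in CTRL. As additions chosen after seeing the data, it was -0.98 in DHEA and -0.24 in CTRL without cluster 8, -0.61 and 0.040 without cells with an effector UMI, and -1.10 and -0.43 without cells with an effector or Ikzf2 UMI. In each of these additions cells were left out of the Ccl5-high side only. The Itga4 ratio of cells with over without effector UMIs in DHEA was 2.24 without the gate, 2.57 with 2 UMIs of each gate gene set, 2.29 with TMM factors, 2.62 and 2.08 with lines at 10 and 40, and 2.20 with 1 effector UMI. In CTRL it was 1.75 thinned, 1.65 with the line at 10 and 1.17 with 1 effector UMI. TMM factors moved these ratios by -0.14 in DHEA and -0.15 in CTRL, those of effector-gene over Ccl5-negative cells in CTRL by -0.12, and no other printed one by over 0.1. The count of genes 1.5-fold apart between DHEA and CTRL was 0 of 9 thinned and 0 of 9 reweighted, against 1. In Ccl5-high cells it was 1 with no UMI minimum and 1 with the line at 10, in both of which Ccr9 was the gene, against 0. Of 95 recomputed values of these comparisons, the other 69 moved by less than the counting error or by under 1.5 times in a count. Of 378 single-gene values 47 moved by more than the counting error, 361 kept their sign, and none at least 1.5-fold apart turned round. Shares of cells with a UMI could not be set against a cell type lacking the genes.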
